A study of Mus musculus with 78 samples.

Results

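The transcriptomes of peripheral blood mononuclear cells (PBMC) from 18-month-old C57BL/6 mice were compared between circadian rhythm disruption (CRD) and a regular light cycle (CON). The samples were 2 libraries per schedule, 4 of the 78 libraries of bulk RNA sequencing analysed here, and each was assigned to its schedule by its label. CON mice lived on 12 h of light per day. CRD mice first had light and darkness swapped every 3 days for 4 weeks. For the next 3 weeks light and darkness each lasted 48 h, and in the last 1 week the light stayed on. All had free access to food. The comparison asks which genes of circulating cells differ in old mice after their light cycle has been disrupted. The labels do not say whether each library came from a separate animal or a pool. The p-values rest on differences between libraries, mostly pooled over genes, and may not reflect the spread between animals. The sources used here do not give the hour of collection or the sex of the mice.

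PBMC are the lymphocytes and monocytes that remain when blood is cleared of red cells and of granulocytes by density. Blood leukocytes answer type I interferon through a surface receptor whose signal reaches the interferon-stimulated response element (ISRE) in the promoters of antiviral genes. Neutrophils are short-lived granulocytes that carry S100A8, S100A9 and granule proteins and are recruited by the chemokines CXCL1 and CXCL2. The molecular clock is a loop in which CLOCK and BMAL1 (encoded by Arntl) bind E-box sequences and drive their own repressors, the Per, Cry and Nr1d genes, and the output factors Dbp, Tef and Hlf. White blood cells carry this clock, and the number of leukocytes in the blood varies over the day.

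Values are FPKM, fragments scaled by transcript length and by the number of mapped fragments, after the adult globin genes Hba-a1, Hba-a2, Hbb-bs and Hbb-bt had been removed and each library had been scaled to the same sum. Levels are given in the order CON 1, CON 2, CRD 1 and CRD 2. Differences are CRD minus CON in the mean of log2(FPKM + 1), with the standard error (SE) of the fit, and this scale understates the change of weakly expressed genes. A gene was called at an adjusted p under 0.05 in limma (Benjamini-Hochberg over 11765 genes averaging 0.5 FPKM or more). An exact permutation test cannot pass this threshold with 2 libraries a side. limma took most of each gene's error from the trend over all genes, with 51.5 prior against 2 residual degrees of freedom.

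The libraries differed in makeup before any schedule is considered. The share of the summed FPKM taken by the 4 globin genes was 4.82%, 0.488%, 41.0% and 5.61%. The median of all 11765 differences was -0.52, and under a second scaling by the median ratio of genes (hereafter median-ratio scaling) it was -0.0001. Differences are therefore read against -0.52 and are set beside their median-ratio value where the sign or the call depends on it. Counts of reads are not part of the table, so absolute depth is unknown. Relative depth, taken from the steps between low values, was 0.928, 0.993, 1.06 and 0.976, but the method drops steps far from the median, so a library of very different depth could hardly stand out. The Pearson correlation of log2 values over genes was 0.966 between the CON libraries and 0.939 between the CRD libraries. Across schedules it was 0.923 for CON 1 with CRD 1, 0.945 for CON 1 with CRD 2, 0.900 for CON 2 with CRD 1 and 0.971 for CON 2 with CRD 2. CON 1 and CRD 1 were thus each closest to their own replicate, while CON 2 and CRD 2 were closest to each other. Differences also followed transcript length, with a median of -0.33 in the shortest of 4 equal length classes and -0.68 in the longest, and CRD 2 exceeded CRD 1 by 0.34 and 0.72 in the same classes. The part of length and RNA quality in the results was not tested.

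The labelled cell type was checked against markers in the deposited values. All 6 B cell markers and 5 of 6 T cell, 4 of 5 NK cell and 4 of 5 classical monocyte markers were higher in each PBMC library than in any of the 74 libraries of the cecum, colon, hippocampus and hypothalamus. Transcripts of cells outside the mononuclear fraction were also present: all 5 platelet markers, 4 of 6 neutrophil markers and 6 of 7 red cell markers stood above every other tissue library. The liver transcript Alb was at 0 in all 4 libraries. The summed FPKM of the 6 neutrophil markers (S100a8, S100a9, Csf3r, Cxcr2, Retnlg and Ly6g) was 920, 565, 8383 and 4388, higher in both CRD libraries. That of the 5 platelet markers was 2658, 1447, 10312 and 3218, and that of 3 red cell markers other than globin was 89.9, 9.47, 1144 and 133, so CRD 1 was richest in both. The 6 T cell markers summed to 229.8, 192, 235 and 134, and the 6 B cell markers to 1435, 1765, 1188 and 1472, with overlap between schedules. In bulk RNA a change in the number of cells of a type and a change in RNA per cell cannot be told apart.

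**Figure D1:**
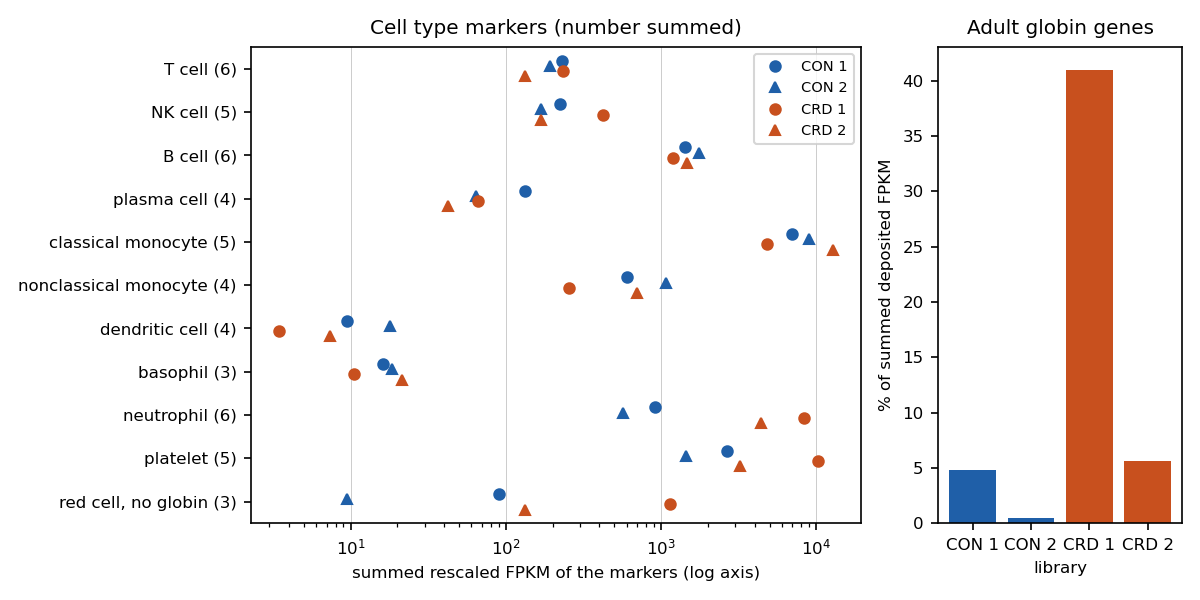
Summed rescaled FPKM of the markers of each cell type (left, log axis, number of markers in brackets) and share of the 4 adult globin genes in the summed deposited FPKM (right, bars from 0) in the 4 PBMC libraries. Neutrophil markers sum to 8383 and 4388 in CRD 1 and CRD 2 against 920 and 565 in CON, and CRD 1 alone has 41.0% globin.

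The largest rises under CRD were led by interferon-induced genes: 6 of the 10 largest belong to the interferon response list and Retnlg to the neutrophil list. limma called 79 genes higher (0.671% of those tested) and 8 lower (0.0680%), 87 in all (0.739%), and 391 and 1169 had an unadjusted p under 0.05. In 782 genes (6.65%) both CRD libraries lay above both CON libraries, and in 5840 (49.6%) both lay below, beside a median of all genes of -0.52. With a difference of at least 1 these counts were 324 (2.75%) higher and 1041 (8.85%) lower. The 10 largest called rises among genes averaging 1 FPKM or more were Isg15, Slfn4, Ifit3, Stfa2l1, Ifit1, Rsad2, Alas2, Ifi44, Ifit3b and Retnlg. The calls depended on the libraries used and on scaling. Fewer genes were called without CON 1 or CON 2, and more without CRD 1 or CRD 2. Each such fit had 1 library for that schedule, so a gene's own spread came only from the other pair. The number of calls thus also reflects which pair set the spread. Under median-ratio scaling no gene was called, and 805 higher and 186 lower genes had an unadjusted p under 0.05. All 87 called genes kept their direction under median-ratio scaling. That scaling moved the median of all genes from -0.52 to -0.0001. It could hardly turn rises, or falls well beyond that shift, so the kept direction is no test. The split of genes apart by at least 1 was there 725 higher and 33 lower.

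**Figure D2:**
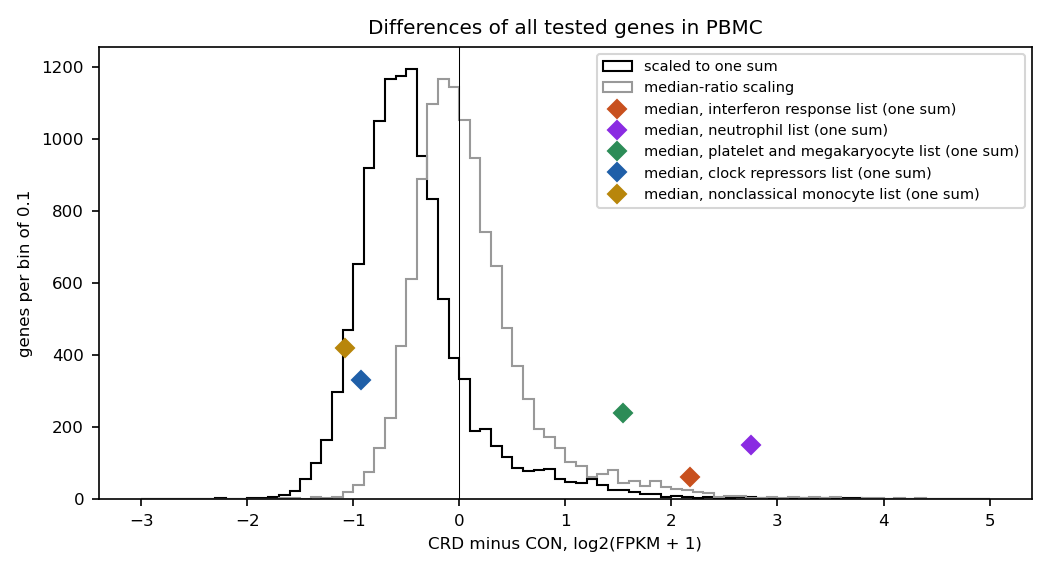
Number of genes per bin of 0.1 against the CRD minus CON difference in log2(FPKM + 1) for all tested genes, with libraries scaled to one sum (black) or by the median ratio (grey). Diamonds mark the medians of 5 gene lists under the first scaling and their height has no meaning; the interferon and neutrophil lists lie at 2.17 and 2.75, the bulk of genes at -0.52.

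The interferon response was the gene group with the most calls. Of 30 listed genes 28 were tested. All 28 had a higher mean under CRD, against 1729 of all 11765 genes. In 22 both CRD libraries lay above both CON libraries (background 6.65%). limma called 15 of the 28 higher and none lower, and the median difference was 2.17 (2.76 under median-ratio scaling). Mx1 and Mx2, which encode antiviral GTPases, were not analysed here. The promoters of 3 leading members are shown first, because they carry the element through which interferon acts. They are RefSeq windows on GRCm38.p6 from 250 bases before to 50 after the transcription start, 5′ to 3′ on the strand of the gene, with the ISRE core (GAAA, any 2 bases, GAAA, read on both strands) in capitals. The regions are chr4:156200769-156201068 on the minus strand for Isg15, chr19:34583279-34583578 on the plus strand for Ifit3 and chr19:34640639-34640938 on the plus strand for Ifit1.
Isg15: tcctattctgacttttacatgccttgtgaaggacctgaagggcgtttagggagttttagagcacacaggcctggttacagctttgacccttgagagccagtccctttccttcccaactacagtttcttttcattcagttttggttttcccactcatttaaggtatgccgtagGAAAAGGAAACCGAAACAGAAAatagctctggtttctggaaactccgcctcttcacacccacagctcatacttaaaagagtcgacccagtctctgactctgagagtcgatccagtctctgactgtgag
Ifit3: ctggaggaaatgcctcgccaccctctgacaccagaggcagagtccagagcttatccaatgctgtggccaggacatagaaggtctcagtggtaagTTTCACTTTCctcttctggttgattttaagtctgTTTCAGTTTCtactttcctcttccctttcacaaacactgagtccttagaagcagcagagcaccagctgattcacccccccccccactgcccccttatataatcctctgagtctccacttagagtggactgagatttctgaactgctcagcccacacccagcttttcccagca
Ifit1: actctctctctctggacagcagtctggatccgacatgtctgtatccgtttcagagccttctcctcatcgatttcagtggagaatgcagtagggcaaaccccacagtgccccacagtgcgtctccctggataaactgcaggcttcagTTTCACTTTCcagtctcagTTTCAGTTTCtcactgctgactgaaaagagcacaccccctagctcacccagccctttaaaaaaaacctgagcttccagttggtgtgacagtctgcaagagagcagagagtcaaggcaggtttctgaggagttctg
The core matched 3 times in Isg15, where the matches overlap, and 2 times each in Ifit3 and Ifit1. The match nearest the start began 66 bases before it in Isg15, 122 in Ifit3 and 85 in Ifit1. Among tested interferon genes with a window, 13 of 21 held the core (61.9%), against 390 of all 9475 tested genes with a window (4.12%) and 0 of 14 neutrophil genes. Among the called members 7 of 12 held it (58.3%). A match describes the letters of the window only.

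Isg15, a ubiquitin-like protein attached to other proteins during the antiviral response (chromosome 4, 156199424 to 156200818), stood at 19.5, 17.1, 675 and 247 FPKM. Both CRD libraries were far above both CON libraries, and CRD 1 was the highest. The difference was 4.41 (SE 0.57, adjusted p = 1.74e-06). Ifit3 (chromosome 19, 34583119 to 34588982), whose family binds viral RNA and blocks its translation, stood at 6.40, 11.5, 134 and 163 FPKM. Its CRD libraries were alike, and it rose by 3.95 (SE 0.56, adjusted p = 8.13e-06). Ifit1, of the same family, stood at 3.75, 3.21, 90.5 and 38.6 FPKM and rose by 3.75 (SE 0.56). Ifit3b, a near-identical neighbour of Ifit3, stood at 0.929, 2.54, 31.1 and 24.4 FPKM and rose by 3.45. The table does not state how reads shared by Ifit3 and Ifit3b were divided, so these are uncertain one by one.

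Rsad2, which encodes the antiviral enzyme viperin, stood at 13, 7.84, 262 and 83.1 FPKM and rose by 3.74 (SE 0.58, adjusted p = 3.74e-05). Ifi44, an interferon-induced gene, stood at 0.436, 1.15, 12.3 and 36.7 FPKM and rose by 3.67 (SE 0.53). Slfn4, a Schlafen gene of myeloid cells, stood at 8.84, 17.1, 167 and 368 FPKM and rose by 4.22 (SE 0.57, adjusted p = 3.47e-06). The order of the CRD libraries was thus not fixed: CRD 1 was higher in Isg15, Ifit1 and Rsad2, and CRD 2 in Ifi44 and Slfn4. Irf7, the transcription factor that amplifies interferon production, stood at 47.7, 99.5, 472 and 904 FPKM and rose by 3.23 (SE 0.57, adjusted p = 0.000562).

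The called interferon genes also included the oligoadenylate synthetase relatives Oasl1, Oasl2 and Oas3, the deconjugating enzyme Usp18, the chaperone Rtp4, the chemokine Cxcl10 and Ifi27l2a. Of the interferon genes, those from Irf7 on were named after their values had been seen. Ifi27l2a stood at 445, 403, 2088 and 1759 FPKM and had the highest mean FPKM of the called members. At the lower end of the list, Gbp3, a guanylate-binding protein, stood at 17.3, 15.9, 13.8 and 20.9 FPKM. Most calls of the list were lost without CON 1 or CON 2, where a gene's own spread came only from the CRD pair. More were made without CRD 1 or CRD 2, where it came only from the CON pair. The list median ran from 1.71 to 2.58 over single left-out libraries. No member was called under median-ratio scaling, where no gene was called. All 15 remained rises there, which is no test, because that scaling shifted the bulk of genes upward. Neutrophil markers, summed at 920, 565, 8383 and 4388, moved with the same libraries, and their part in the interferon result was not tested.

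**Figure D3:**
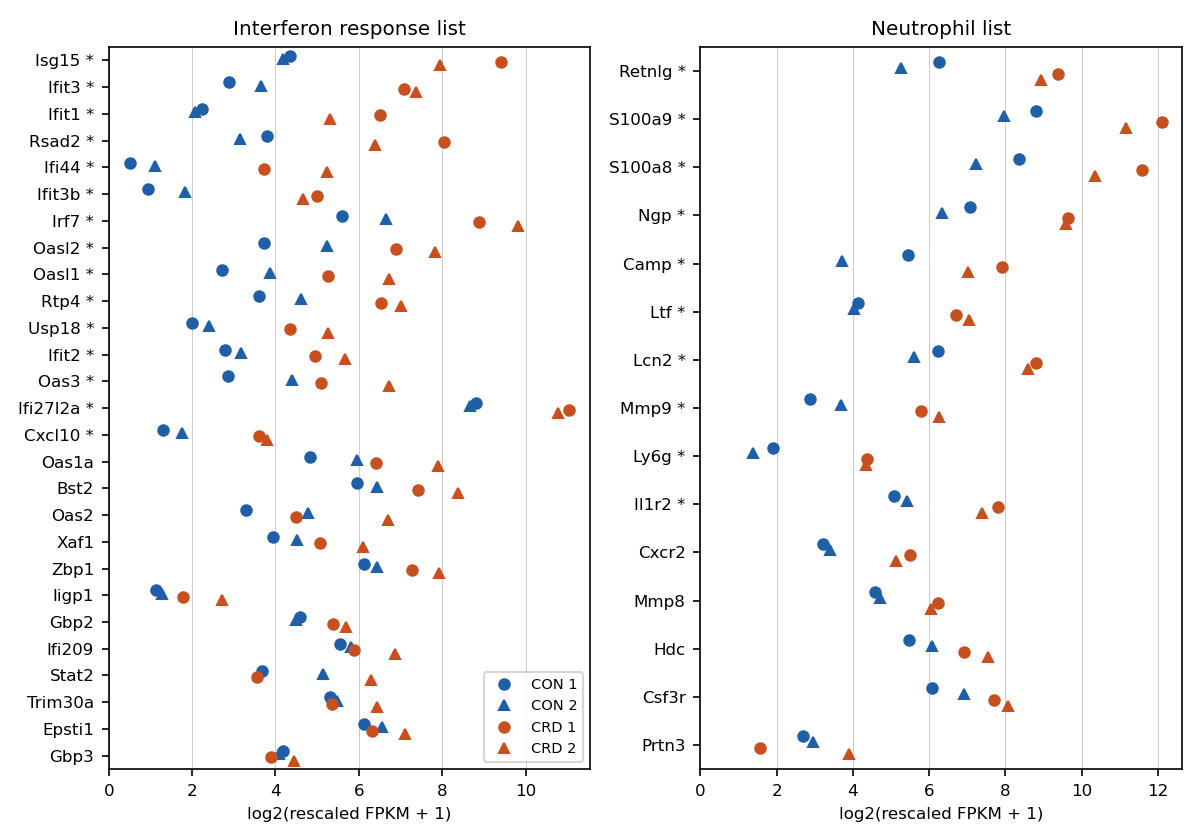
Levels of 27 of the 28 tested members of the interferon response list (left) and of all 15 of the neutrophil list (right) in the 4 PBMC libraries, as log2(rescaled FPKM + 1), with CON in blue, CRD in orange, circles for replicate 1 and triangles for replicate 2; a star marks a gene called by limma. CRD points lie to the right of both CON points in 22 of these 27 interferon genes and 14 of 15 neutrophil genes.

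Neutrophil genes had the highest median difference of the lists. Of 17 listed genes 15 were tested, 10 were called higher and none lower, and in 14 the groups did not overlap (background 6.65%). The median difference was 2.75, and 3.37 under median-ratio scaling. S100a8, which with S100a9 forms the alarmin calprotectin, stood at 327, 148, 3086 and 1308 FPKM. Each CRD library was above each CON library, and S100a8 rose by 3.19 (SE 0.58, adjusted p = 0.000810). S100a9 stood at 441, 249, 4364 and 2269 FPKM and rose by 3.24 (SE 0.57). Retnlg, a resistin-like secreted protein of neutrophils, stood at 75.1, 37.5, 663 and 492 FPKM and rose by 3.40 (SE 0.57, adjusted p = 0.000175). Stfa2l1, a stefin-type inhibitor of cysteine proteases that is no member of the list, stood at 5.91, 3.84, 96.6 and 71.4 FPKM and rose by 3.86 (SE 0.55).

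Members that mark granules and receptors differed in size. Ngp, a granule protein, stood at 133, 79.4, 792 and 766 FPKM and rose by 2.91 (SE 0.56, adjusted p = 0.00176). Ly6g, the surface antigen used to identify mouse neutrophils, stood at 2.78, 1.60, 19.7 and 19.4 FPKM and rose by 2.71 (SE 0.53). The CRD libraries were nearly equal in both genes. Cxcr2, the receptor for CXCL1 and CXCL2, stood at 8.28, 9.51, 44.2 and 34 FPKM, without overlap and with a difference of 2.01 (SE 0.55, adjusted p = 0.0717). Csf3r, the receptor for the neutrophil growth factor G-CSF, stood at 65.9, 119, 207 and 266 FPKM, a difference of 1.39 (SE 0.56, adjusted p = 0.336). Prtn3, a protease of early granule formation, stood at 5.50, 6.78, 1.97 and 13.8 FPKM and was the 1 tested member with overlapping groups. The calls of the list were lost without CON 1 or CON 2, where a gene's own spread came only from the CRD pair. More were made without CRD 1 or CRD 2, beside shifts of the same kind over all genes. Its median ran from 2.45 to 2.84 over single left-out libraries. No member was called under median-ratio scaling, where no gene was called. All 10 remained rises there, which is no test, because that scaling shifted the bulk of genes upward.

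Among 20 genes of NF-kB signalling and inflammatory cytokines 3 were called, all higher (background 0.671%), 7 stood higher and 1 lower without overlap (background 6.65% and 49.6%), and the median difference was -0.02. Cxcl2, a chemokine that attracts neutrophils, stood at 21.3, 10.1, 88.1 and 122 FPKM and rose by 2.73 (SE 0.56, adjusted p = 0.00338). Il1b, the cytokine interleukin 1 beta, stood at 102, 38.7, 420.4 and 303 FPKM and rose by 2.48 (SE 0.57, adjusted p = 0.0133). Cxcl1, a close relative of Cxcl2, stood at 0.559, 0.196, 1.89 and 3.08 FPKM and rose by 1.33 (SE 0.34, adjusted p = 0.0410). In all 3 genes both CRD libraries lay above both CON libraries. All 3 calls were lost under median-ratio scaling, where the differences were 3.36 for Cxcl2, 3.14 for Il1b and 1.63 for Cxcl1.

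Platelet and megakaryocyte genes stood higher in CRD without a call. All 18 listed genes were tested, and all 18 had a higher mean and an unadjusted p under 0.05, against 391 higher of all 11765 genes. Of the 18, 15 did not overlap (background 6.65%) and limma called 0 after adjustment. Their median difference was 1.54, and 2.19 under median-ratio scaling. Ppbp, a platelet chemokine, stood at 1653, 757, 5749 and 1448 FPKM, where CRD 2 lay below CON 1. Nrgn, a calmodulin-binding protein abundant in platelets, stood at 586, 902, 3093 and 2191 FPKM (difference 1.84, SE 0.56, adjusted p = 0.151). Pf4, platelet factor 4, stood at 512, 300.3, 2250.4 and 816 FPKM (difference 1.79, SE 0.58), and Itga2b, the integrin chain CD41, at 157, 159, 652 and 354 FPKM (difference 1.60, SE 0.56). CRD 1 held the highest value of each of these 4 genes.

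Red cell genes other than adult globin followed the globin share of the libraries. Of 23 listed 15 were tested, 5 were called higher and 10 did not overlap in that direction (background 6.65%), with a median difference of 1.49. Alas2, the first enzyme of heme synthesis in red cell precursors, stood at 70.8, 8.26, 971 and 120.1 FPKM and rose by 3.73 (SE 0.69, adjusted p = 0.000913). Bpgm, the enzyme that makes 2,3-bisphosphoglycerate, stood at 42.7, 10.4, 430.4 and 63.2 FPKM and rose by 2.90 (SE 0.64). Slc4a1, the band 3 anion exchanger, stood at 2.45, 0.490, 33.1 and 5.21 FPKM and rose by 2.68 (SE 0.56), and Trim10, needed for erythroid differentiation, at 2.30, 0.305, 29.4 and 3.42 FPKM and rose by 2.48 (SE 0.56). In each of these genes CRD 1 stood far above the other libraries and CON 2 was lowest, the order of the globin share. Most of these calls were lost without CON 1 or CON 2 and more were made without CRD 2, as over all genes. No member was called under median-ratio scaling, where no gene was called. Without CRD 1 the median difference of the list was 0.62.

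Monocyte genes did not move as a block. Of 13 classical monocyte genes none was called, 2 stood higher and 2 lower without overlap (background 6.65% and 49.6%), and the median difference was -0.39. Ly6c2, the surface antigen that defines classical inflammatory monocytes in mice, stood at 628, 593, 1665 and 3761 FPKM. Both CRD libraries were above both CON libraries, with a difference of 2.03 (SE 0.57, adjusted p = 0.0896). Lyz2, a lysozyme, stood at 5926, 7630.4, 3082 and 8587 FPKM, and Ccr2, the receptor by which these cells leave the bone marrow, at 67.4, 76.2, 22.0 and 89.2 FPKM. In both genes CRD 1 was the lowest library and CRD 2 the highest. Csf1r, the receptor for the macrophage growth factor, stood at 273, 438, 58.3 and 346 FPKM, and Fn1, fibronectin, at 46.7, 178, 4.50 and 63.8 FPKM, again with CRD 1 lowest and with overlap. The median difference of the list was 0.31 without CRD 1 and -1.13 without CRD 2.

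Genes of nonclassical monocytes, which patrol the vessel wall, had a median difference of -1.08 over 12 tested (-0.44 under median-ratio scaling). None was called, and 7 stood lower without overlap, near the background of 49.6%. Without CRD 1 the median was -0.53, beside -0.21 for all genes. Ear2, a ribonuclease, stood at 456, 272, 187 and 163 FPKM (difference -1.01, SE 0.56, adjusted p = 0.381). Treml4, a receptor of these cells, stood at 118, 122, 33.3 and 83.1 FPKM (difference -1.17, SE 0.57). Ace, angiotensin-converting enzyme, stood at 197, 318, 43.8 and 172 FPKM (difference -1.52, SE 0.59). In these 3 genes both CRD libraries were below both CON libraries. Cx3cr1, the fractalkine receptor, stood at 46.0, 67.5, 12.5 and 47.4 FPKM, with overlap.

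No lymphocyte gene of the lists was called, and the lists differed in their distance from the -0.52 of all genes. In the T cell receptor complex 15 genes were tested, none was called, 9 stood lower without overlap (background 49.6%) and the median difference was -0.56 (0.086 under median-ratio scaling). Cd3e, a signalling chain of the receptor, stood at 23.4, 29.3, 16.7 and 17.1 FPKM, a difference of -0.60 that was 0.028 under median-ratio scaling. Cd4, the coreceptor of helper T cells, stood at 11.6, 27.8, 8.38 and 10.7 FPKM (difference -0.86, SE 0.56), and Cd8a, that of cytotoxic T cells, at 25.9, 16.0, 22.2 and 20.6 FPKM (difference 0.06, SE 0.55). Of 10 genes of naive and memory T cells 7 stood lower without overlap (background 49.6%), none was called, and the median was -0.98 (-0.36 under median-ratio scaling). Il7r, the interleukin 7 receptor, chosen after its values were seen, stood at 67.2, 50.3, 16.7 and 21.2 FPKM (difference -1.58, SE 0.55, adjusted p = 0.264). Klf2, a factor that keeps T cells quiescent, overlapped at 289, 544, 278 and 441 FPKM.

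B cell genes gave a median difference of -0.43 over 13 tested (0.11 under median-ratio scaling), with none called and 6 lower without overlap (background 49.6%). Cd79a, a chain of the B cell receptor, stood at 495, 789, 541 and 629 FPKM, with overlap between schedules. Genes of NK cells and cytotoxic effectors had a median of -0.05 over 16 tested (0.53 under median-ratio scaling), none called and 1 lower without overlap (background 49.6%). Gzma, granzyme A, stood at 165, 117, 363 and 139 FPKM, with CRD 1 alone high.

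The called falls were few, and 7 of the 8 averaged 1 FPKM or more and had a plain gene symbol. Hpgd, the enzyme that inactivates prostaglandins (chromosome 8, 56294552 to 56321046), stood at 29.9, 29.0, 3.06 and 6.28 FPKM and fell by 2.48 (SE 0.55, adjusted p = 0.00802). Its CON libraries were nearly equal and both were several times the higher CRD library. Slc12a2, the sodium, potassium and chloride cotransporter NKCC1, stood at 28.6, 15.2, 3.09 and 4.50 FPKM and fell by 2.21 (SE 0.54, adjusted p = 0.0255). Mdm1, a protein of microtubules and centrioles, stood at 55.3, 34.7, 5.63 and 14.2 FPKM and fell by 2.16 (SE 0.56, adjusted p = 0.0455). Both libraries of CRD lay below both of CON in these genes. Klra23, of the Ly49 receptor family of NK cells, stood at 8.87, 5.89, 0.808 and 1.31 FPKM and fell by 2.01 (SE 0.45, adjusted p = 0.00889); its near-identical relatives make its value uncertain. Pdgfb, a platelet-derived growth factor chain, stood at 11.2, 4.26, 0.962 and 1.72 FPKM and fell by 1.80 (SE 0.47). Zfp433, a zinc finger gene, stood at 5.93, 4.42, 0.0481 and 2.05 FPKM and fell by 1.78, and Capn11, a calpain protease, at 2.18, 2.78, 0.0289 and 0.820 FPKM and fell by 1.34. All 7 calls were lost under median-ratio scaling, where the differences ran from -1.12 for Capn11 to -1.91 for Hpgd.

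Most clock genes stood lower in both CRD libraries, but no single gene was called. Of 19 genes in 3 lists (activators, repressors and output factors) 15 were tested. Of these 14 had a lower mean, against 10036 of all 11765 genes. In 13 the groups did not overlap, each lower (86.7%, against 49.6% of all genes). An unadjusted p under 0.05 was reached by 7, each lower, against 1169 lower of all 11765 genes, and limma called 0. The median difference was -0.90, and under median-ratio scaling it was -0.42 with 11 of 15 lower. The other 4 were not tested, among them Npas2, Per3 and Hlf, which were below the minimum mean. The promoters of 2 of the lowest members that hold an E-box are shown, as RefSeq windows of the same kind with CACGTG in capitals, because CLOCK and BMAL1 act through it. The regions are chr15:81802423-81802722 on the plus strand for Tef and chr6:145865371-145865670 on the minus strand for Bhlhe41.
Tef: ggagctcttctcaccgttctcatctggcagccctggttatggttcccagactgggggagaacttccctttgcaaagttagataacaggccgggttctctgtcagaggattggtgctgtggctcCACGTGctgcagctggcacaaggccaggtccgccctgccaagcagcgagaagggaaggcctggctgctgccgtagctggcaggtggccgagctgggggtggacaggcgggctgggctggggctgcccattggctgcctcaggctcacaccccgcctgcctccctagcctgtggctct
Bhlhe41: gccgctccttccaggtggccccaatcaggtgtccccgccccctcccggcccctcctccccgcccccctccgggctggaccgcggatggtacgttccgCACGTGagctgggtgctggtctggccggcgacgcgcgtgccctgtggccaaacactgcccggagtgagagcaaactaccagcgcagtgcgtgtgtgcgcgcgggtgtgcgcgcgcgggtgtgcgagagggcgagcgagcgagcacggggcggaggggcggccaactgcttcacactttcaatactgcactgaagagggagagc
The E-box began 127 bases before the start in Tef and 153 before it in Bhlhe41. Of the 13 tested clock genes with a window 5 held CACGTG (38.5%), against 1113 of 9475 tested genes (11.7%).

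Among the activators, Arntl stood at 8.59, 9.39, 3.19 and 5.95 FPKM (difference -0.89, SE 0.52, adjusted p = 0.388). Clock stood at 5.49, 4.97, 1.35 and 2.55 FPKM (difference -1.11, SE 0.45). Both partners of the activating complex were thus lower in both CRD libraries. Rora, a receptor that activates Arntl, stood at 6.54, 5.19, 4.51 and 4.16 FPKM, a difference of -0.36 that was 0.20 under median-ratio scaling.

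Among the repressors, Nr1d2, a REV-ERB receptor that represses Arntl, stood at 23.0, 19.1, 6.47 and 6.81 FPKM (difference -1.52, SE 0.54, adjusted p = 0.273). Its groups were well apart and its CRD libraries nearly equal. Nr1d1, the other REV-ERB gene, stood at 4.84, 6.83, 0.933 and 3.90 FPKM (difference -1.14, SE 0.48). Ciart, a repressor of the activating complex, stood at 8.38, 8.15, 1.35 and 7.79 FPKM, so that CRD 2 was just under the CON libraries. Cry1, a cryptochrome, stood at 11.8, 14.7, 6.10 and 9.10 FPKM (difference -0.74, SE 0.54) and Cry2 at 3.54, 5.24, 1.33 and 2.5 FPKM (difference -0.90, SE 0.44). Both were lower in both CRD libraries. Per1, a period gene that also responds to glucocorticoids, overlapped at 66.7, 196, 48.7 and 162 FPKM. Per2 stood at 1.19, 1.55, 0.683 and 1.13 FPKM, a difference of -0.32. Under median-ratio scaling the signs of Per1 and Per2 turned, to 0.29 and 0.016. Bhlhe40 and Bhlhe41, repressors that compete for E-boxes, stood at 121, 97.3, 37.6 and 85.2 FPKM and at 6.16, 4.15, 1.66 and 2.06 FPKM, differences of -0.92 and -1.09 without overlap.

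Of the output factors, Tef, a PAR bZIP activator, stood at 19.6, 20.4, 3.78 and 7.35 FPKM. It had the largest difference of the clock genes, -1.73 (SE 0.54, adjusted p = 0.170), and its CON libraries were nearly equal. Dbp, of the same family, stood at 3.29, 3.52, 1.3 and 1.51 FPKM (difference -0.87, SE 0.41, adjusted p = 0.373). Nfil3, which opposes these factors at the same sites, overlapped at 22.5, 60.0, 23.9 and 63.2 FPKM, with the libraries paired by number and not by schedule. Without CRD 1 the median difference of the activators was -0.46 and that of the repressors -0.46, and without CRD 2 they were -1.25 and -1.22, beside medians of all genes of -0.21 and -0.82. The number of clock genes called lower was 11 in the fit over 5 tissues, beside 6298 called lower among all genes. With the replicate number as a block it was 2 (Nr1d2 and Tef), beside 164 among all genes. For the output factors the range over single left-out libraries was -0.94 to -0.81.

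**Figure D4:**
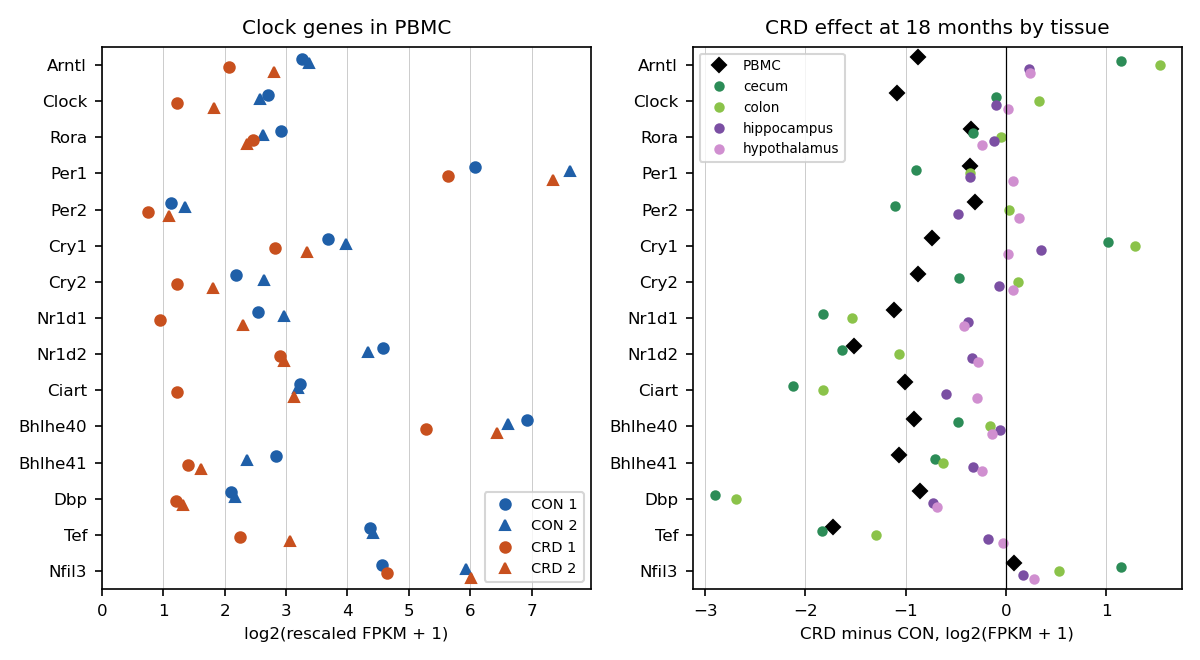
Clock genes in the 4 PBMC libraries as log2(rescaled FPKM + 1) (left; CON blue, CRD orange, circles replicate 1, triangles replicate 2) and the CRD minus CON difference of each gene in PBMC and 4 solid tissues at 18 months (right). CRD points lie below both CON points in 13 of 15 genes, and Arntl and Cry1 lie below 0 in PBMC and above 0 in the cecum and colon.

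Other lists had no called member, and their medians are read against the -0.52 of all genes. MHC class II genes had a median of -0.33 (10 tested, 1 lower without overlap against a background of 49.6%). MHC class I and antigen processing genes had a median of 0.26, with 3 of 10 higher without overlap against a background of 6.65%. B2m, the light chain of MHC class I, stood at 7581, 4936, 22038 and 9151 FPKM (difference 1.22, SE 0.57, adjusted p = 0.373). Immediate early genes, which respond to handling and activation, had a median of -0.32 over 22 and glucocorticoid targets of -0.53 over 12, with 6 lower without overlap, a share at the background of 49.6%. Medians were -0.45 for heat shock and unfolded protein genes, -0.43 for Toll-like receptors and inflammasome, -0.40 for chemokine receptors and homing, -0.34 for ribosomal proteins, -0.29 for cell cycle and DNA replication, -0.22 for oxidative phosphorylation, -0.11 for hypoxia and glycolysis, -0.10 for autophagy and lysosome, -0.04 for the oxidative stress response and 0.03 for complement and Fc receptors. They were -0.37 for p53 and senescence, -0.50 for clock kinases and ligases, -0.68 for regulatory T cells, -0.57 for exhausted and age-associated T cells, -0.68 for age-associated B cells and -0.72 for plasma cells. Dendritic cell genes had a median of -0.49, basophil, mast cell and eosinophil genes 0.04, stem and progenitor cell genes -0.45, endothelial and stromal genes 0.25 over 2 tested, and hepatocyte and epithelial genes -0.36.

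The effect in PBMC was then set against that of the same schedules in the cecum, colon, hippocampus and hypothalamus. This comparison used 1 limma model over 39 libraries of 18-month mice and 10387 genes averaging 0.5 FPKM or more in each of the 5 tissues. The difference was the PBMC effect minus the mean effect of the other 4 tissues. All libraries shared 1 estimate of spread per gene, so SE and p rest mostly on the solid tissues. They may understate the spread between PBMC libraries. In the 5-tissue fit the PBMC effect itself had 693 genes called higher and 6298 lower, against 79 and 8 from the PBMC libraries alone. limma called 449 genes with a more positive (4.32%) and 5094 with a more negative PBMC effect (49.0%), beside a median effect of all genes of -0.53 in PBMC and -0.04 elsewhere. Under median-ratio scaling 1177 were called higher (11.2% of 10538) and 774 lower (7.34%).

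Of the interferon genes 24 of 28 had a more positive effect in PBMC than in the other tissues, against 1387 of all 10387 genes. Of these 24, 11 were called. All 28 were tested, with a median effect of 2.16 in PBMC and 1.05 in the other tissues. The 11 called were all higher (background 4.32%), and 16 were called under median-ratio scaling (background 11.2%). Isg15 had an effect of 4.41 in PBMC, 1.65 in the cecum, 1.94 in the colon, 1.24 in the hippocampus and 1.81 in the hypothalamus, a difference of 2.74 (SE 0.76, adjusted p = 0.00400). Rsad2 differed by 2.76 (SE 0.55, adjusted p = 0.000340) and Ifit3 by 2.60 (SE 0.72, adjusted p = 0.00428). Ifi27l2a, with 2.18 in PBMC and 1.84 on average elsewhere, had a difference of 0.33 (SE 0.56, adjusted p = 0.620). The count of 11 was 6 without CON 1, 10 without CON 2, 6 without CRD 1 7 without CRD 2 and 7 at a minimum mean of 2, and Isg15 lost its call without CRD 1 (difference 2.02, adjusted p = 0.136). Of the neutrophil genes 4 reached the minimum mean in all tissues, and all 4 were called higher in PBMC (background 4.32%). Their number was 14 without a filter and 0 at a minimum mean of 2. At that minimum Csf3r and the interferon gene Rsad2 were no longer tested, so the lower counts also reflect genes removed by the filter. Among them Csf3r had 1.39 in PBMC and -0.02 elsewhere, a difference of 1.41 (SE 0.24, adjusted p = 6.43e-05).

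Of the 15 clock genes 5 were called with a more negative effect in PBMC (33.3%, below the 49.0% of all genes) and 1 with a more positive effect. Under median-ratio scaling 3 and 1 were called. Arntl had an effect of -0.88 in PBMC, 1.15 in the cecum, 1.53 in the colon, 0.23 in the hippocampus and 0.24 in the hypothalamus. The difference was -1.67 (SE 0.39, adjusted p = 0.00111), and -1.17 under median-ratio scaling (adjusted p = 0.0245). Without CRD 1 it was -1.31 (adjusted p = 0.0602). Cry1, with -0.74 in PBMC and 1.02 and 1.29 in the cecum and colon, differed by -1.41 (SE 0.22, adjusted p = 3.41e-05; -0.86 under median-ratio scaling). Clock differed by -1.12 (SE 0.21, adjusted p = 0.000218; -0.75 under median-ratio scaling). These 3 genes were called under both scalings, with a more negative effect in PBMC.

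Dbp differed in the other direction. Its effect was -0.85 in PBMC and -2.90, -2.69, -0.73 and -0.69 in the cecum, colon, hippocampus and hypothalamus, a difference of 0.90 (SE 0.37, adjusted p = 0.0382; 1.26 and adjusted p = 0.0183 under median-ratio scaling). In PBMC its mean level was low, at 3.40 FPKM in CON. The call of Dbp was lost at a pseudocount of 0.1 (0.63, adjusted p = 0.166) and without a filter on low values (adjusted p = 0.0752). It was also lost without any 1 of the 4 PBMC libraries, where the difference ran from 0.84 to 0.96. Cry2 (-0.79, SE 0.31, adjusted p = 0.0312) and Bhlhe41 (-0.59, SE 0.20, adjusted p = 0.0150) were called under sum scaling only, at -0.41 and -0.17 under median-ratio scaling. Neither was called without CRD 1 (-0.51 and -0.49). Cry2 also lost its call without CON 2 (adjusted p = 0.227) and without a filter (adjusted p = 0.0597), and Bhlhe41 without CON 1 (adjusted p = 0.187) and at a pseudocount of 0.1 (adjusted p = 0.0524). The other 9 clock genes, among them Nr1d1 (-0.07), Nr1d2 (-0.69), Tef (-0.89), Per1 (0.03) and Per2 (0.05), were not called.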

How the data were processed

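Bulk RNA sequencing of PBMC from 18-month-old mice (2 CON and 2 CRD libraries) was compared, with 35 libraries of the 4 solid tissues of the same age for reference. The authors deposited FPKM values for 20673 genes. Per the labels' protocols mRNA was selected with oligo(dT) from Trizol extracts and primed with random hexamers. HISAT2, Bowtie2, RSEM and DESeq2 and build GRCm38 are named in the submitters' processing notes, without versions or roles. Whether counting used strand and how reads shared by paralogs were divided are not given in the sources used here.

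From these values the 4 adult globin genes were removed and each library was rescaled to the mean remaining sum. Genes with a mean of at least 0.5 were tested on log2(FPKM + 1) with limma 3.58.1 in R 4.3.3 (two-sided, with an abundance trend in the prior variance and Benjamini-Hochberg adjustment over all tested genes, called under 0.05). Other steps used Python 3.11.15 with pandas 2.3.3, and the fits were tested on simulated data. Genes whose 2 groups did not overlap were counted as a second, untested measure, because each schedule has only 2 libraries. The tissue comparison was 1 model over 39 libraries with a mean for each tissue and schedule. Depth is not stated, so no counting intervals were made.

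The comparison, the 41 gene lists and their members were chosen with earlier results of these data known, and lists were described by counts and medians without a test. Genes were named by rule: called genes averaging 1 FPKM or more, with non-overlapping groups and a plain symbol (up to 10 per direction), all tested clock genes, up to 4 called or else the 2 most abundant members of each other list, cell type markers, and up to 5 called tissue differences per direction. Some others were named for their role after their values were seen: Irf7, Il7r, Oasl1, Oasl2, Oas3, Usp18, Rtp4, Cxcl10, Ifi27l2a, Gbp3 and Prtn3. The list of mitochondrial genome transcripts was not analysed here, and some single genes are not reported here. Coordinates and promoter windows come from RefSeq on GRCm38.p6, to which 20517 genes were matched by gene ID. Alternatives were the scaling, the pseudocount, the filter, the prior variance, a replicate block, the 5-tissue fit and leaving out each library.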

Additional observations from a re-analysis of the deposited data

Results flagged for a closer look

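The following genes are listed because a test of the difference itself (limma, 1 model over 39 libraries) found their CRD effect in PBMC to differ from the mean effect in the cecum, colon, hippocampus and hypothalamus. Values are PBMC minus the other tissues in log2(FPKM + 1), with the SE and the adjusted p over 10387 genes, and 49.0% of all genes were called lower and 4.32% higher, with a median of -0.50. Each SE comes from a spread shared by all tissues, mostly the solid ones, and may understate the spread between PBMC libraries.

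Among clock genes the difference was -1.67 for Arntl, -1.12 for Clock, -1.41 for Cry1, -0.79 for Cry2, -0.59 for Bhlhe41 and 0.90 for Dbp. Those of Cry2 and Bhlhe41 lost their call under median-ratio scaling, at -0.41 and -0.17. Among interferon genes it was 2.74 for Isg15, 2.60 for Ifit3 and 2.76 for Rsad2, and for the neutrophil receptor gene Csf3r it was 1.41.

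The largest called differences upward were those of genes that neutrophils and red cells express. Asprv1, a retroviral-like aspartic protease, stood at 3.20, 2.77, 37.3 and 35.3 FPKM in CON 1, CON 2, CRD 1 and CRD 2 and differed by 3.20 (SE 0.24, adjusted p = 2.18e-11). Mmp9, a gelatinase of neutrophil granules, stood at 6.30, 11.9, 54.3 and 75.7 FPKM and differed by 2.96 (SE 0.26, adjusted p = 9.94e-10). Bpgm differed by 2.93 (SE 0.44, adjusted p = 2.68e-05). Lrg1, a secreted glycoprotein also stored in neutrophil granules, stood at 2.83, 5.93, 32.0 and 47.2 FPKM and differed by 2.89 (SE 0.41, adjusted p = 1.53e-05). G0s2, an inhibitor of the lipase ATGL, stood at 18.4, 14.3, 170 and 68.3 FPKM and differed by 2.85 (SE 0.32, adjusted p = 5.38e-07).

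Among the largest called differences downward were those of Hpgd, Fn1, Mdm1 and Nt5e. Hpgd differed by -2.14 (SE 0.32, adjusted p = 2.68e-05) and Mdm1 by -2.04 (SE 0.32, adjusted p = 3.76e-05). Fn1 differed by -2.11 (SE 0.77, adjusted p = 0.0221), and this call was lost under median-ratio scaling and without CON 2 or CRD 1. Nt5e, the ectoenzyme CD73, differed by -1.89 (SE 0.46, adjusted p = 0.00153), with an effect of -1.56 in PBMC and 1.87 in the colon.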

How the results depend on the processing

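For the 87 called genes, calls depended on the settings. Over all genes directions depended on the scaling, with a median difference of -0.52 under sum scaling and -0.0001 under median-ratio scaling. Genes called higher and lower numbered 79 and 8. Under median-ratio scaling they were 0 and 0 (genes apart by at least 1, 725 and 33), without a filter on low values 0 and 0 (434 and 1251 at an unadjusted p under 0.05), without a trend in the prior variance 27 and 0, with the 5-tissue fit 693 and 6298. Genes called lower were 23 with globin kept, 3 at a pseudocount of 0.1 (2343 apart by at least 1), 3 at a minimum mean of 2 and 19 with a robust prior. The causes were not tested. All 87 called genes kept their direction under median-ratio scaling, but the upward shift of all genes there could hardly turn them. Isg15 lost its call only under that scaling and without the filter. The tissue comparison gave 1177 and 774 under median-ratio scaling.

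Under median-ratio scaling list medians were 3.37 for neutrophil, 0.086 for T cell receptor, -0.36 for naive T cell, 0.53 for NK cell, 0.11 for B cell, -0.33 for clock activators and -0.42 for clock output genes, and without a filter the activators gave -0.36, the output genes -0.50 and the red cell genes 0.81. At a minimum mean of 2 the red cell median was 2.33. In the tissue comparison 4 neutrophil genes were called higher, 14 without a filter and 0 at a minimum mean of 2, and interferon genes called higher numbered 11, and 7 at that minimum. Csf3r and Rsad2 were no longer tested at that minimum. Signs turned for Lyz2 (0.27), Cd3e (0.028), Klf2 (0.48), Cd79a (0.56), Rora (0.20), Per1 (0.29) and Per2 (0.016), and for the tissue differences of Rora (0.37), Nr1d1 (0.27) and Nfil3 (0.16). That of Per2 was -0.12 at a pseudocount of 0.1.

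Leaving out each library gave 3 to 499 genes called higher and 3 to 5013 lower, 326 to 479 and 218 to 4487 apart by at least 1, and 277 to 510 and 801 to 7092 in the tissue comparison. List medians ran from 1.71 to 2.58 for interferon, 2.45 to 2.84 for neutrophil, 1.11 to 2.05 for platelet, 0.62 to 2.11 for red cell, -1.13 to 0.31 for classical and -1.59 to -0.53 for nonclassical monocyte, -0.70 to -0.11 for T cell receptor, -0.99 to -0.61 for naive T cell, -0.33 to 0.28 for NK cell, -0.73 to -0.33 for B cell, -1.25 to -0.46 for clock activators, -1.22 to -0.46 for repressors and -0.94 to -0.81 for output genes. Genes whose sign turned ran from -1.66 to 0.31 (Ccr2), -0.43 to 0.23 (Cd79a), -0.27 to 0.39 (Cd8a), -0.0018 to 1.38 (Gzma), -0.64 to 0.28 (Klf2), -1.13 to 0.35 (Lyz2), -0.61 to 0.76 (Nfil3) and -1.22 to 0.49 (Per1), and tissue differences from -0.74 to 1.13 (Ciart), -1.14 to 0.23 (Nfil3), -0.73 to 0.58 (Nr1d1), -0.83 to 0.88 (Per1) and -0.12 to 0.21 (Per2).

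The labels number the libraries 1 and 2 in each schedule without saying that a number pairs them. Deviations of same-numbered libraries correlated at 0.536, a hint from the data only. With the replicate number as a block in the PBMC fit 238 genes were called higher and 164 lower, all 87 among them. In the tissue comparison the block was another one, joining libraries of 1 schedule and number over tissues (correlation 0.10). The tissue difference of Per1 was then -0.043. Depth is unknown, so no limit for a value of 0 can be given.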

Other observations

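Some genes separated the libraries by replicate number and not by schedule, and were chosen after their values were seen. Gm40525, an unnamed gene model, was at 1.89 FPKM (CON 1) and 0.529 FPKM (CRD 1), against 2030.5 in CON 2 and 1138 in CRD 2. Gm41885 was at 14.4 FPKM (CON 1) and 4.21 FPKM (CRD 1), against 395 in CON 2 and 222 in CRD 2. The Y-linked genes Uty and Eif2s3y were detected in all 4 libraries, at 1.02, 1.02, 0.250 and 0.799 FPKM and at 0.806, 0.981, 0.115 and 0.465 FPKM.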
